A study of Mus musculus with 15 samples.

Results

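The genes described here are the 10 genes of TREM receptor and ITAM signalling: Trem2, Tyrobp, Hcst, Treml2, Trem1, Syk, Plcg2, Inpp5d, Vav1 and Blnk. They were chosen by name from 36528 gene IDs and followed in microglia sorted from mouse cortex by green fluorescence from a Cx3cr1 reporter. The samples were PS2APP (n = 9, 4 at 14 months and 5 at 15 months of age) and non-Tg, the wild type (n = 6, 2 at 14 months and 4 at 15 months). PS2APP mice are a model of amyloid deposition with transgenes for mutant human presenilin 2 and for the human amyloid precursor protein. Both groups carry the reporter. The sources used here do not give the promoters of the transgenes, the sex of the mice or the number of reporter alleles. Nothing in the labels states that samples came from different mice, so the p-values cover only the spread seen between samples, which may be technical.

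TREM2 is a surface receptor of microglia that binds lipids, lipoproteins and amyloid. It has no signalling tail of its own and pairs with the adaptor DAP12, the product of Tyrobp, whose immunoreceptor tyrosine-based activation motif (ITAM) is phosphorylated by Src family kinases and then recruits the kinase Syk. Syk acts on phospholipase C gamma 2 (Plcg2), the exchange factor Vav1 and the adaptor Blnk, while the inositol phosphatase SHIP1 (Inpp5d) opposes the phosphoinositide branch. Variants of human TREM2, PLCG2 and INPP5D are linked to the risk of Alzheimer's disease.

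Of the 10 genes, 9 passed the filter on low counts and were tested, and 1 of these, Treml2, was called. It rose 2.47-fold in PS2APP microglia. Trem2, Tyrobp and Hcst had positive log2 fold changes of 0.41 to 0.83 and the 5 downstream genes negative ones of -0.32 to -0.09, and none of these 8 genes passed the test. In simulated counts the test recovered 40% of genes changed 2-fold, so a gene not called is not shown to be unchanged. Over all 13994 genes tested with edgeR's quasi-likelihood test, 165 (1.18%) had an adjusted p under 0.05, with 134 higher (0.958%) and 31 lower (0.222%). The median log2 fold change was -0.09 over the 9 genes and -0.02 over all genes tested. At an unadjusted p under 0.05 there were 2 of the 9, Tyrobp and Treml2, beside 1635 genes (11.7%) of all tested.

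Total counts per sample were 3664742 to 8455237, with a median of 5867848. The 10 microglia markers summed to 24900 to 37900 CPM (counts scaled to library size) in PS2APP and 31400 to 42300 CPM in non-Tg samples, with 0 of 10 called. All 10 had negative log2 fold changes (median -0.22), and 3 of them, P2ry12, Tmem119 and Cx3cr1, had an unadjusted p under 0.05. App and Psen2 were not called (edgeR adjusted p = 0.623 and 0.563), and counts over mouse gene models do not separate mouse from human transcripts. Some libraries stood apart: PS2APP samples 1 and 4 and non-Tg samples 9 and 13 were high in immediate early genes, and PS2APP sample 14 and non-Tg samples 12 and 13 were low in Xist. In these last 3 the log2 ratio of Xist to Y-linked reads was -4.31, -3.71 and -3.25, against 11.3 to 13.6 in the others. By these reads the 3 samples were male and the others female, so sex was not balanced between the genotypes. Summed neuron markers were 62.0 to 228 CPM in PS2APP and 239 to 452 CPM in non-Tg samples, with no overlap. The neuron marker score, the mean log2 CPM of the tested markers, was 1.39 to 3.17 in PS2APP and 3.25 to 3.98 in non-Tg samples. A fit that holds this score therefore cannot clearly tell it apart from genotype. Non-Tg sample 5 had the lowest depth, at 3664742 counts, close to PS2APP sample 14 at 3843223. Of the 2 non-Tg samples of 14 months, sample 13 thus stood apart in immediate early genes and Xist, and sample 5 in neither. The part of these differences in the results below was not tested beyond the fits given beside them.

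**Figure D1:**
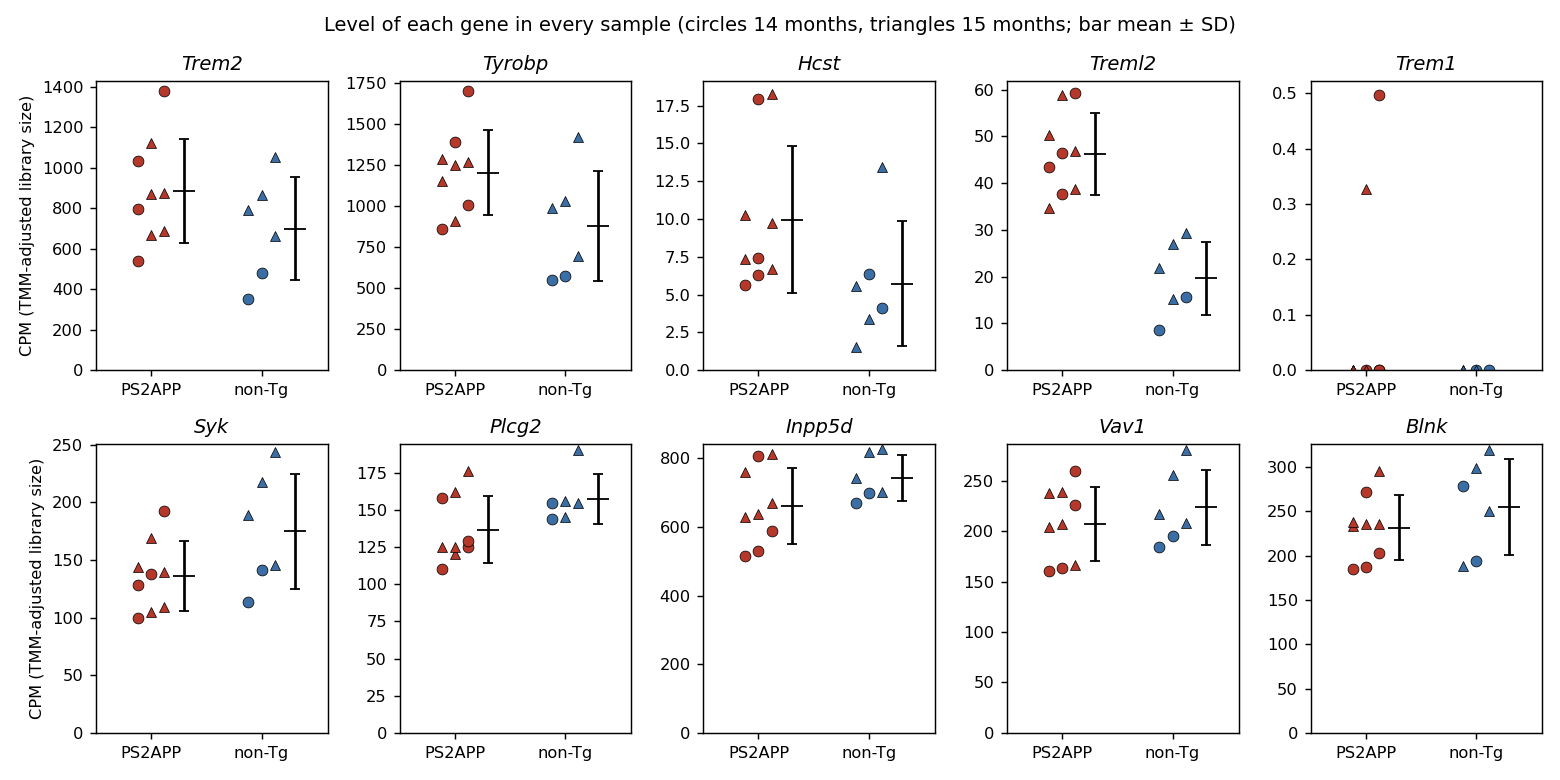
Level of each of the 10 genes in CPM (y axis, linear from 0) in every PS2APP sample (left, red) and non-Tg sample (right, blue), with circles for 14 months, triangles for 15 months and bars for the mean ± SD where the gene was tested. The 9 PS2APP samples of Treml2 (34.7 to 59.3 CPM) sit above all 6 non-Tg samples (8.59 to 29.3 CPM), and the groups overlap for the other genes.

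Trem2, the receptor, lies on chromosome 17 (48346401 to 48352276, plus strand, GRCm38). Its level was 539.7 CPM in the lowest, 871 in the median and 1377 in the highest PS2APP sample, against 353, 726 and 1051 CPM in non-Tg samples. The groups overlapped widely, and 6 of 9 PS2APP samples lay above the non-Tg median. The means were 886 ± 258 CPM in PS2APP (SD, n = 9) and 699.8 ± 256 CPM in non-Tg (n = 6). The log2 fold change was 0.41 ± 0.23 (SE), and Trem2 was not called (edgeR adjusted p = 0.496). Without non-Tg sample 13, its lowest sample, it was 0.22 (adjusted p = 0.730). In bulk RNA, fewer cells of a type and less RNA per cell cannot be told apart, for this and every gene below.

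Tyrobp, which encodes DAP12, is on chromosome 7 (30413782 to 30417582, plus strand). It stood at 861, 1246 and 1701 CPM in the lowest, median and highest PS2APP sample, against 549.7, 841 and 1417 CPM in non-Tg samples. All 9 PS2APP samples lay above the non-Tg median, yet non-Tg sample 11, at 1417 CPM, exceeded 8 of the 9 PS2APP samples. The mean was 1202 ± 260.0 CPM in PS2APP (SD, n = 9) and 875 ± 335 CPM in non-Tg (n = 6), a log2 fold change of 0.52 ± 0.20 that was not called (edgeR adjusted p = 0.266). With limma-voom and sample quality weights it was called, at 0.73 ± 0.17 (adjusted p = 0.0300), in a fit that called 1.43% of all genes.

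Hcst encodes DAP10, a related adaptor that recruits phosphoinositide 3-kinase in place of Syk. Its gene (chromosome 7, 30417712 to 30419854, minus strand) ends 129 bases from the end of Tyrobp, and the pair point towards each other. Its level was low, with 5.61, 7.45 and 18.3 CPM in the lowest, median and highest PS2APP sample and 1.51, 4.83 and 13.5 CPM in non-Tg samples. PS2APP samples 1 and 8 held 86 and 96 reads, the others 27 to 63, and non-Tg samples 12 to 65. All 9 PS2APP samples were above the non-Tg median, while the ranges overlapped. The means were 9.97 ± 4.86 CPM in PS2APP and 5.73 ± 4.15 CPM in non-Tg samples, a log2 fold change of 0.83 ± 0.44 that was not called (edgeR adjusted p = 0.475). The non-Tg SD was 72.4% of the mean, the widest spread among the 9 genes in either genotype. Without non-Tg sample 11 the log2 fold change of Hcst was 1.27 (edgeR adjusted p = 0.181), without the 4 libraries with high immediate early genes it was 0.35 (adjusted p = 0.778), and with the neuron marker score it was 0.018 (adjusted p = 0.999).

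Treml2 encodes a TREM-like receptor known from B cells, macrophages and neutrophils. Its gene (chromosome 17, 48299390 to 48312534, plus strand) lies in the Trem cluster, 33866 bases from Trem2. In PS2APP microglia Treml2 stood at 34.7 CPM in the lowest sample, 46.5 in the median and 59.3 in the highest, and in non-Tg microglia at 8.59, 18.8 and 29.3 CPM. Every PS2APP sample lay above every non-Tg sample, as did 80 of all genes tested (0.572%), with 9 in the opposite order (0.0643%) and 89 in either (0.636%). The mean was 46.3 ± 8.79 CPM in PS2APP (SD, n = 9) and 19.6 ± 7.86 CPM in non-Tg (n = 6). Treml2 rose by 1.30 ± 0.24 on the log2 scale (SE; edgeR adjusted p = 0.00547). The read counts behind these levels were 153 to 412 per PS2APP sample and 31 to 189 per non-Tg sample.

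The call of Treml2 held in each of 15 fits that left out a sample, with log2 fold changes of 1.12 to 1.42 and edgeR adjusted p of 0.00489 to 0.0288. It was lost without the 4 libraries with high immediate early genes (1.09 ± 0.29, edgeR adjusted p = 0.0787, with 142 of 14195 genes called) and with the neuron marker score as a covariate (1.43 ± 0.39, adjusted p = 0.625), a fit that called 13 genes in all (0.0929%). That score did not overlap between the genotypes, so the fit that holds it is no clear check of the call. Markers of other cells known to use Treml2 were summed, and their part in the result was not tested. Summed B cell markers were 16.2 to 31.1 CPM in PS2APP and 19.5 to 39.9 CPM in non-Tg samples, with 0 of the 2 tested called, and Ms4a1, Pax5 and Fcmr had 1 to 15 reads each over all samples. Summed neutrophil markers were 284 to 649 CPM in PS2APP and 261 to 532 CPM in non-Tg samples. Csf3r alone averaged 469 CPM in PS2APP and 388 CPM in non-Tg of that sum, it was the single neutrophil marker of 11 that passed the filter, and it was not called (edgeR adjusted p = 0.534). Summed monocyte markers were 34.8 to 78.2 CPM in PS2APP and 23.2 to 65.1 CPM in non-Tg samples, with 0 of 3 tested called. For border-associated macrophages the summed markers were 61.3 to 242 CPM in PS2APP and 37.4 to 224 CPM in non-Tg samples, with 0 of 6 tested called.

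Trem1, a DAP12-coupled receptor of neutrophils and monocytes, was close to absent. The 9 PS2APP libraries held 5 reads among 48222353, in samples 6 and 10. The 6 non-Tg libraries held 0 reads among 37108534, which allows up to 0.0808 CPM (3 reads over the group, counting error only). With log2(CPM + 1) the exact permutation p, two-sided, over 5005 splits was 0.486. Its gene (chromosome 17, 48232713 to 48246927) overlaps a processed pseudogene on the other strand, and no source used here says whether counting used strand.

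The downstream genes had ranges that overlapped between the genotypes. Syk, the kinase that docks on phosphorylated ITAMs (chromosome 13, 52582610 to 52648792), stood at 99.8, 138 and 193 CPM in the lowest, median and highest PS2APP sample, against 113, 167 and 244 CPM in non-Tg samples. In PS2APP 2 of 9 samples were above the non-Tg median. The log2 fold change was -0.32 ± 0.18 and was not called (edgeR adjusted p = 0.521). Plcg2, the phospholipase that makes the second messengers diacylglycerol and inositol trisphosphate (chromosome 8, 117498275 to 117635142), stood at 110.4, 125 and 176 CPM in PS2APP and 144, 155 and 190.4 CPM in non-Tg samples, with a log2 difference of -0.19 ± 0.14 (edgeR adjusted p = 0.646). In 6 of 9 PS2APP samples it lay below all 6 non-Tg samples. A microRNA gene on the other strand lies inside it.

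Inpp5d, the SHIP1 phosphatase (chromosome 1, 87620312 to 87720510), had 514, 637 and 811 CPM in the lowest, median and highest PS2APP sample and 668, 721 and 826 CPM in non-Tg samples. Its log2 fold change was -0.15 ± 0.13 (edgeR adjusted p = 0.719), and 3 of 9 PS2APP samples were above the non-Tg median. Vav1, a guanine nucleotide exchange factor (chromosome 17, 57279100 to 57329236), had 161, 207 and 259.8 CPM in PS2APP and 184.5, 212 and 280.5 CPM in non-Tg samples, a log2 difference of -0.09 ± 0.15 (edgeR adjusted p = 0.884). Blnk, a scaffold that brings Plcg2 and Vav1 to Syk in B cells (chromosome 19, 40928927 to 40994221), had 185, 236 and 296 CPM in PS2APP and 189, 265 and 319.7 CPM in non-Tg samples, a log2 difference of -0.12 ± 0.15 (edgeR adjusted p = 0.828). For each of these 5 genes the estimate was within 2 SE of 0 and the groups overlapped. Over the 15 fits that left out a sample the estimates ran from -0.16 (without PS2APP sample 4) to -0.03 (without PS2APP sample 7) for Vav1 and from -0.20 (without non-Tg sample 11) to -0.05 (without non-Tg sample 13) for Blnk, and neither was called in any. Over 1.5 times from the full estimate, Vav1 also moved without non-Tg samples 2 (-0.03) and 9 (-0.06) and PS2APP sample 3 (-0.06), and Blnk without non-Tg sample 2 (-0.07) and PS2APP sample 4 (-0.18).

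**Figure D2:**
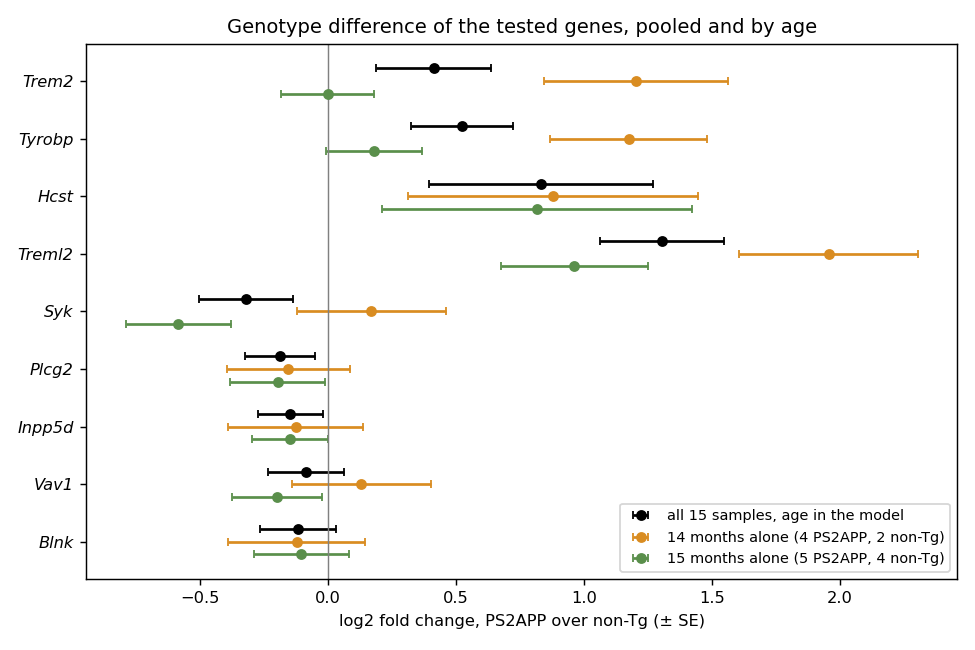
Log2 fold change of the 9 tested genes, PS2APP over non-Tg (x axis, ± SE), from all 15 samples with age in the model (black) and from the samples of 14 months (orange) and 15 months (green) alone. Trem2 lies at 1.20 at 14 months and at 0 within its SE at 15 months, and Treml2 is positive in all 3 fits.

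Within the ages Trem2 and Tyrobp gave unequal estimates, and Hcst did not, at 0.88 ± 0.57 at 14 months and 0.82 ± 0.61 at 15 months. At 14 months Trem2 stood at 539.7, 798, 1032 and 1377 CPM in the 4 PS2APP samples, against 353 and 479.9 CPM in the 2 non-Tg samples, so the groups did not overlap. Samples of 4 against 2 split in only 15 ways, so groups without overlap at this age can readily arise by chance. The share of all genes without overlap at this age was not computed. At 15 months Trem2 stood at 667, 689.6, 871, 875 and 1123 CPM in PS2APP and at 660.5, 791, 863.5 and 1051 CPM in non-Tg samples, and the groups overlapped almost fully. The log2 fold change was 1.20 ± 0.36 at 14 months (edgeR adjusted p = 0.224) and -0.0028 ± 0.18 at 15 months (adjusted p = 0.997). Tyrobp behaved alike in its estimates, with 1.17 at 14 months and 0.18 at 15 months. The PS2APP mean of Tyrobp was 1239 CPM at 14 months and 1172 CPM at 15 months, and the non-Tg mean was 561 and 1031 CPM at the same ages, so the non-Tg samples held most of the difference between the ages.

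The test of that difference itself, the genotype by age term, gave -1.16 ± 0.39 for Trem2 (edgeR adjusted p = 0.635, unadjusted p = 0.00662) and -0.96 ± 0.35 for Tyrobp (adjusted p = 0.641, unadjusted p = 0.0127). It called 0 of the 13994 genes (0%), with 1038 (7.42%) at an unadjusted p under 0.05, so a difference between the ages was not shown for any of the 9 genes. Age itself called 0 genes (0%; 1112 at an unadjusted p under 0.05, 7.95%), and the adjusted p of the 9 genes for age were 0.748 to 0.941 with edgeR. Of the 2 non-Tg samples of 14 months, sample 13 is among the libraries that stood apart, with 353 CPM of Trem2 and 572 CPM of Tyrobp. Sample 5, which stood apart in neither immediate early genes nor Xist, held 479.9 CPM of Trem2 and 549.7 CPM of Tyrobp. The part of these 2 samples in the estimates at that age cannot be told apart from age.

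Treml2 kept its order at both ages. At 14 months the PS2APP samples stood at 37.8 to 59.3 CPM and the 2 non-Tg samples at 8.59 and 15.7 CPM. At 15 months the PS2APP samples stood at 34.7 to 58.9 CPM and the non-Tg samples at 15.3 to 29.3 CPM. The groups did not overlap at either age, where the samples split in 15 ways at 14 months and 126 at 15 months. The share of all genes without overlap was not computed within an age. The log2 fold change was 1.96 ± 0.35 at 14 months (edgeR adjusted p = 0.0442, with 0.338% of genes called) and 0.96 ± 0.29 at 15 months, where the call was lost (adjusted p = 0.184, with 0.476% of genes called). The genotype by age term for Treml2 was -0.95 ± 0.44 (adjusted p = 0.666). Syk had log2 fold changes of 0.17 at 14 months and -0.59 at 15 months, and neither was called.

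**Figure D3:**
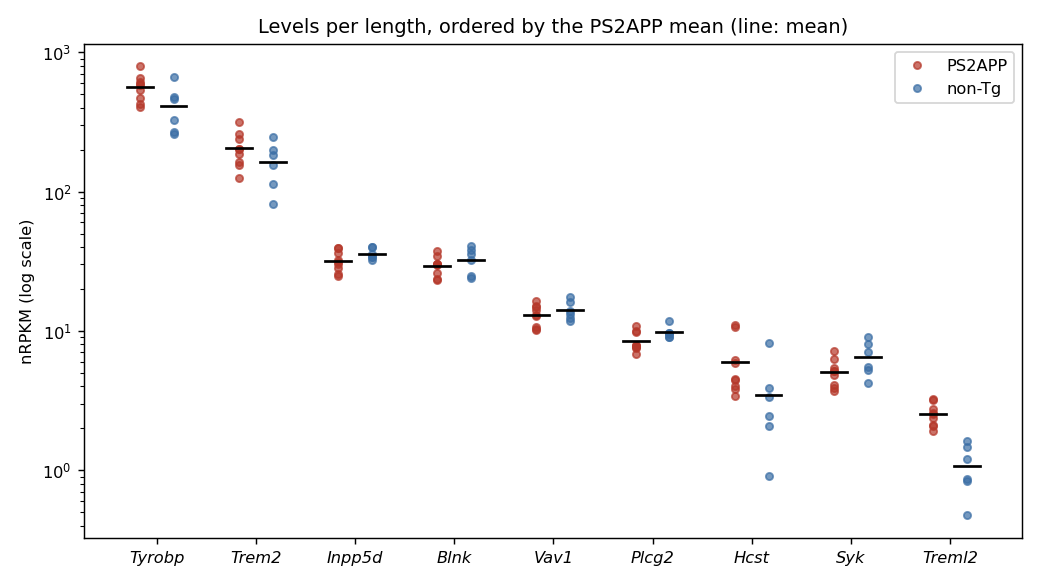
Level per length in nRPKM (y axis, log scale) of the 9 tested genes, ordered by their PS2APP mean, with a point for each PS2APP (left, red) and non-Tg (right, blue) sample and a line at the group mean. Tyrobp and Trem2 lie above the downstream genes in both genotypes, and Treml2 is the lowest of the 9.

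Levels were compared between genes on the deposited nRPKM scale, which divides by gene length. In PS2APP microglia Tyrobp was the most abundant at 562 ± 119.5 nRPKM (SD, n = 9), followed by Trem2 at 206 ± 58.9. In non-Tg microglia Tyrobp stood at 410.1 ± 156 nRPKM (SD, n = 6) and Trem2 at 163 ± 59.4. In both genotypes the ranges of Tyrobp and Trem2 did not overlap, nor did those of Trem2 and the next gene, Inpp5d. Inpp5d (31.9 nRPKM in PS2APP, 35.9 in non-Tg) and Blnk (29.4 in PS2APP, 32.5 in non-Tg) overlapped with each other and lay above Vav1 (13.1 in PS2APP, 14.1 in non-Tg).

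Below Vav1 the order was less clear. Vav1 overlapped with Plcg2 (8.47 nRPKM in PS2APP, 9.77 in non-Tg), and Plcg2 with the next gene in each genotype. Hcst (5.997 nRPKM in PS2APP, 3.47 in non-Tg) and Syk (5.07 in PS2APP, 6.52 in non-Tg) overlapped in both genotypes, and their order was turned round between them. Treml2 was the lowest of the 9 genes at 2.53 ± 0.47 nRPKM in PS2APP and 1.08 ± 0.43 nRPKM in non-Tg samples. It stood clear of the neighbouring Syk in PS2APP and overlapped with the neighbouring Hcst in non-Tg samples. The transcript that rose was the scarcest of the 9 per length, and the 2 most abundant, Tyrobp and Trem2, were not called.

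Ratios of the genes to each other within a sample depend little on how libraries are scaled. For all 36 pairs of the 9 genes the log2 ratio was compared between genotypes by exact permutation (two-sided, 5005 splits of 9 against 6 samples), with adjustment over the 36 ratios. This test was added after the data were seen. It called 9 ratios, of which 7 hold Treml2. Treml2 was itself called and did not overlap between the genotypes, so these 7 carry that result again and are not 7 separate ones. Ratios of other genes were not computed for comparison. The log2 ratio of Treml2 to Syk averaged -1.54 ± 0.36 in PS2APP and -3.19 ± 0.58 in non-Tg samples (SD), a difference of 1.65. The differences were 1.52 for Treml2 to Plcg2, 1.49 to Inpp5d, 1.42 to Vav1 and 1.43 to Blnk. In each of these 5 ratios all 9 PS2APP samples were above all 6 non-Tg samples, and the exact permutation p was 0.0002, the smallest that 5005 splits can give (adjusted p = 0.00144).

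Within the ages these 5 ratios kept their order. At 14 months all 4 PS2APP samples were above both non-Tg samples, where 15 splits allow no exact permutation p below 0.0667. At 15 months all 5 PS2APP samples were above all 4 non-Tg samples (exact permutation p = 0.00794 for each, the smallest that 126 splits allow). The differences for Treml2 to Syk were 1.86 at 14 months and 1.55 at 15 months. All 5 kept an adjusted p under the threshold without the 4 libraries with high immediate early genes (exact permutation, adjusted p = 0.0218) and without the 3 low in Xist (adjusted p = 0.0104). Without the 4 libraries the unadjusted p of each was 0.00303, the smallest that 330 splits allow, and the edgeR call of Treml2 itself was lost.

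Treml2 also differed in its ratio to the receptor and its adaptor. The log2 ratio of Trem2 to Treml2 averaged 4.22 ± 0.35 in PS2APP and 5.15 ± 0.59 in non-Tg samples (exact permutation, adjusted p = 0.0132). The ratio of Tyrobp to Treml2 averaged 4.68 ± 0.42 in PS2APP and 5.47 ± 0.59 in non-Tg samples (exact permutation, adjusted p = 0.0392). The other 2 called ratios set Tyrobp against Syk, with a difference of 0.86 and 6 of 9 PS2APP samples above all non-Tg samples, and against Plcg2, with 0.73 and 5 of 9 (exact permutation, adjusted p = 0.0392 for each). Without the 4 libraries with high immediate early genes these 4 ratios lost their call (adjusted p = 0.0545 for Trem2 to Treml2, 0.209 for Tyrobp to Treml2, 0.0954 for Tyrobp to Syk and 0.0622 for Tyrobp to Plcg2). Without the 3 libraries low in Xist, Tyrobp to Syk (adjusted p = 0.191) and Tyrobp to Plcg2 (0.218) lost theirs. The ratio of Trem2 to Tyrobp, the receptor to its adaptor, differed by -0.14 between genotypes and was not called (exact permutation, adjusted p = 0.448).

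**Figure D4:**
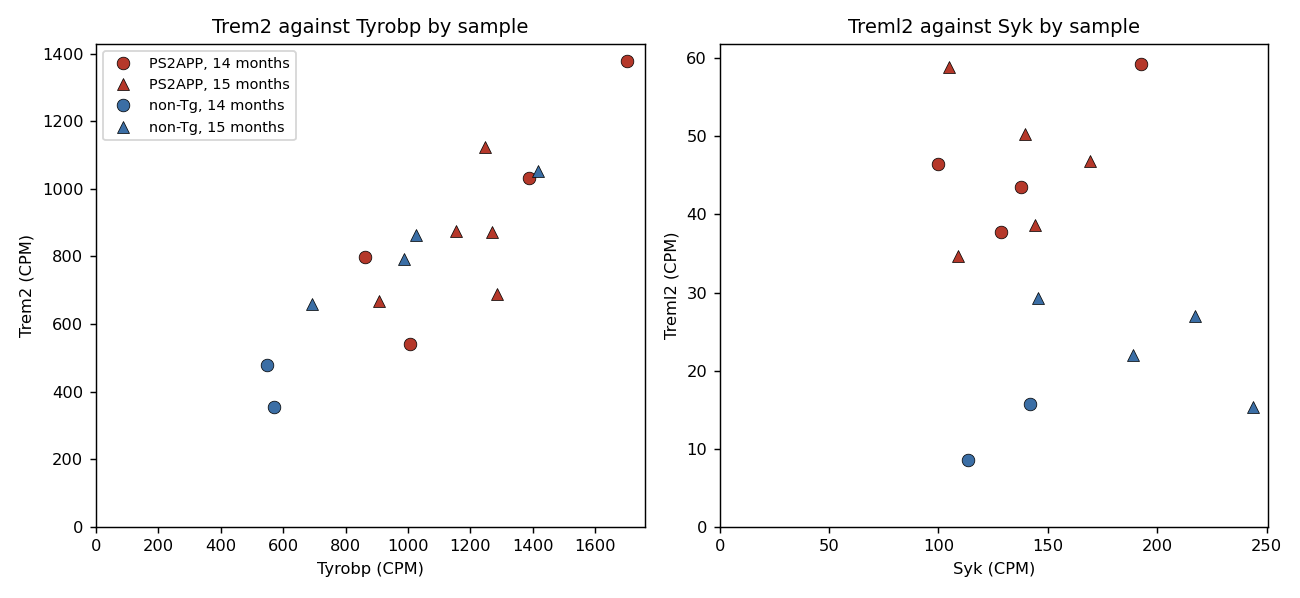
Trem2 against Tyrobp (left panel) and Treml2 against Syk (right panel), in CPM on linear axes, 1 point per sample, PS2APP in red and non-Tg in blue, circles 14 months and triangles 15 months. Samples with more Tyrobp mostly hold more Trem2 (r of log2 CPM 0.732 in PS2APP and 0.927 in non-Tg samples, neither past the adjusted threshold), and in the right panel all PS2APP points lie above all non-Tg points.

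Correlations between the genes were computed within each genotype. For Trem2 and Tyrobp Pearson's r of log2 CPM was 0.732 over the 9 PS2APP samples (exact permutation p = 0.0250, Spearman's coefficient 0.633 with p = 0.0760) and 0.532 without the 2 samples farthest from the median of Trem2. Over the 6 non-Tg samples r was 0.927 (exact permutation p = 0.0111, Spearman's 0.943 with p = 0.0167) and 0.989 without such 2 samples. Of 72 relations computed, 36 pairs in each genotype, 0 passed after adjustment, and the smallest adjusted p was 0.142 for Pearson's r (exact permutation). In PS2APP the pairs with the largest r were Treml2 and Plcg2 (r = 0.874, exact permutation p = 0.00260, Spearman's 0.850 with p = 0.00607; r = 0.901 without 2 samples), and Inpp5d and Vav1 (r = 0.832, exact permutation p = 0.00787, Spearman's 0.817 with p = 0.0108; r = 0.717). In non-Tg samples r was -0.0452 for Treml2 and Plcg2 (exact permutation p = 0.939, Spearman's -0.0857 with p = 0.919; r = -0.580 without 2 samples). It was 0.753 for Inpp5d and Vav1 (exact permutation p = 0.0917, Spearman's 0.943 with p = 0.0167; r = 0.960).

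Genes most like the receptor and its adaptor across all 15 samples were named by Pearson's r of log2 CPM among 11460 genes, as a description. For Trem2 they were Eif3f (r = 0.906), Ctsz (0.906) and Man2b1 (0.890). For Tyrobp they were Npc2 (0.927), Ctsz (0.896) and Cd52 (0.890). Ctsz encodes cathepsin Z, Man2b1 a lysosomal mannosidase and Npc2 a lysosomal cholesterol carrier, while Eif3f is a translation initiation subunit. None of these 5 genes was called between the genotypes (edgeR adjusted p 0.173 to 0.826). For Treml2 they were H2-M3 (r = 0.898), Nlrc5 (0.891) and Fxyd5 (0.882), all 3 called higher in PS2APP. For H2-M3 r was 0.433 within the 9 PS2APP samples and 0.789 within the 6 non-Tg samples, for Nlrc5 0.352 in PS2APP and 0.796 in non-Tg, and for Fxyd5 0.0778 in PS2APP and 0.698 in non-Tg. The r over all 15 samples also holds the genotype difference of these genes.

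Promoter sequences are shown for Trem2 and for Inpp5d, Vav1 and Blnk, since r in PS2APP samples was 0.832 for Inpp5d with Vav1 and 0.828 for Inpp5d with Blnk, though neither r passed adjustment (exact permutation, adjusted p = 0.142 for each). They were searched for the letters GAGGAA, known as a core of sites of PU.1, the transcription factor of the myeloid and B cell lineages. Each is the 250 bases before an annotated start, 5′ to 3′ on the strand of the gene, from RefSeq (GRCm38.p6), and capitals mark GAGGAA or its reverse complement TTCCTC, searched on both strands. The windows are chr17:48346151-48346400 (plus strand) for Trem2, chr1:87620062-87620311 (plus) for Inpp5d, chr17:57278850-57279099 (plus) for Vav1 and chr19:40994222-40994471 (minus) for Blnk.
Trem2: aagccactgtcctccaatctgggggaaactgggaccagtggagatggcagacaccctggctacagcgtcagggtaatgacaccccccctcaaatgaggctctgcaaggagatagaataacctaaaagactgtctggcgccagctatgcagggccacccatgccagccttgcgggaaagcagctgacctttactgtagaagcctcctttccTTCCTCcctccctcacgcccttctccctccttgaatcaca
Inpp5d: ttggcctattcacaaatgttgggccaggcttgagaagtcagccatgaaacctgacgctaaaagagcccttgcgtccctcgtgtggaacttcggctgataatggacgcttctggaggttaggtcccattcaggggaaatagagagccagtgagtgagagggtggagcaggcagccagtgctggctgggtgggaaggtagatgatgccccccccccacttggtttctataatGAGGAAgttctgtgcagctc
Vav1: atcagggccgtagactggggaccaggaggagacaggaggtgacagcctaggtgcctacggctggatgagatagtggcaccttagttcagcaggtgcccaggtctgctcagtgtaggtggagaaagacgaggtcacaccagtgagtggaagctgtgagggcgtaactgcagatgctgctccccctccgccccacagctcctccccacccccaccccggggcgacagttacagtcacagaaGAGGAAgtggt
Blnk: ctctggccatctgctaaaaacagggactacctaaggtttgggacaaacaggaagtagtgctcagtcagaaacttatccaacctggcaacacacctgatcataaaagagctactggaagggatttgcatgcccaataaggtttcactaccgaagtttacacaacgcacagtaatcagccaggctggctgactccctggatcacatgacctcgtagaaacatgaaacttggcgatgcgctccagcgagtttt
The match began at position -40 in Trem2, -20 in Inpp5d and -11 in Vav1, counted from the start, and the Blnk window holds none. Of the windows not shown, those of Plcg2 and Hcst hold none, and Trem1 and Syk have a window with a match. Of the 10 genes, 8 were in the promoter table, and 5 of these held the letters, in 5 of their 9 promoters. Of all 32815 promoters of this length 7630 (23.3%) held them. A match is a string of letters in the sequence, and no binding was measured here.

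**Figure D5:**
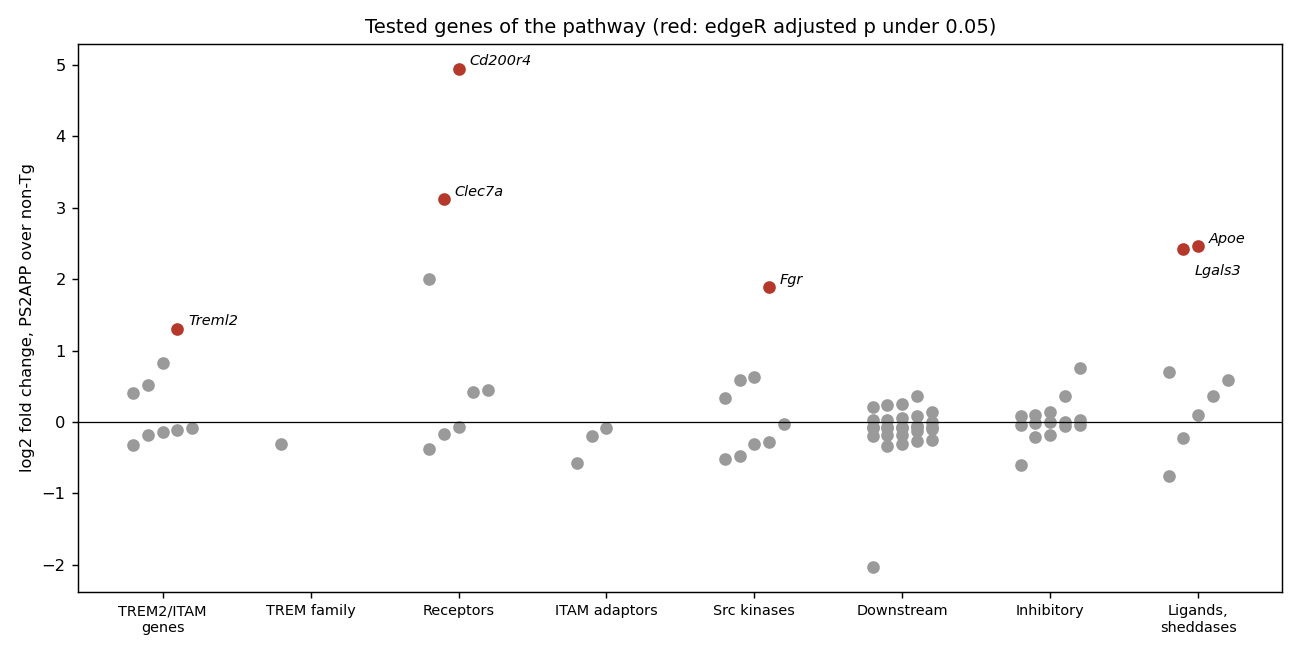
Log2 fold change, PS2APP over non-Tg (y axis), of each tested gene, 1 point per gene, for the 9 tested TREM2 and ITAM genes and 7 lists of other pathway genes, with genes of an edgeR adjusted p under 0.05 in red and named. The downstream list, apart from Vav3 at -2.03, lies near 0, the inhibitory list lies between -0.60 (Dok3) and 0.75 (Lilrb4a), and neither has a red point, and the 5 red points of the lists lie among receptors, Src kinases and ligands.

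Other genes of the pathway were read from 7 lists chosen by known role. The lists were chosen with earlier results of these data known, so counts of called genes in them are a description only. Of 95 genes listed 73 were tested, 5 rose, 0 fell and 68 were not called, with a median log2 fold change of -0.04 (30 positive, 43 negative). Over all 13994 genes tested 0.958% rose and 0.222% fell. Of 29 tested downstream kinases, adaptors and lipid enzymes, the next steps of the cascade, 0 were called, with a median of -0.08. The extremes named there were Vav3, at -2.03 ± 0.84 (edgeR adjusted p = 0.325), and Tec, a kinase of the Btk family, at 0.36 ± 0.18 (adjusted p = 0.446). Vav3 rests on non-Tg sample 11, which held 19.9 CPM, and stood at -0.81 without it.

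Of 15 tested inhibitory phosphatases and adaptors 0 were called, with a median log2 fold change of -0.005. Lilrb4a, an inhibitory receptor, averaged 79.4 ± 24.9 CPM in PS2APP and 47.8 ± 19.9 CPM in non-Tg samples (0.75 ± 0.25, edgeR adjusted p = 0.184), and of the alternatives run it was called in 1, with no filter on low counts (adjusted p = 0.0157). Another gene lies over Lilrb4a on the same strand, so its reads are uncertain. Dok3, an adaptor that dampens ITAM signals, stood at -0.60 ± 0.28 (edgeR adjusted p = 0.414). Of the other 3 tested ITAM adaptors 0 were called: Cd79b stood at -0.57 ± 0.39, Cd247 at -0.20 ± 0.18 and Fcer1g at -0.08 ± 0.16 (edgeR adjusted p 0.615 to 0.904). Cd247 overlaps genes on the other strand and a gene on its own strand, so its reads are uncertain as well. Treml1, the 1 tested gene of the other TREM family members, was not called (-0.32 ± 0.56, edgeR adjusted p = 0.888).

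The 5 called genes were in the receptor, Src kinase and ligand lists, which were chosen with earlier results known. Over all genes tested 0.958% were called higher. Of 8 tested receptors that signal through such adaptors or a related motif, 2 rose and 0 fell, with a median log2 fold change of 0.43. Clec7a, the beta-glucan receptor Dectin-1, whose own tail carries an ITAM-like motif that recruits Syk, stood at 89.96, 261 and 417.5 CPM in the lowest, median and highest PS2APP sample and at 14.25, 25.8 and 39.1 CPM in non-Tg samples. The groups did not overlap. It rose by 3.12 ± 0.31 on the log2 scale (edgeR adjusted p = 1.89e-06). Cd200r4, a member of the CD200 receptor family that pairs with DAP12, had 11.1 to 48.9 CPM in PS2APP and 0 to 1.66 CPM in non-Tg samples, without overlap. Its log2 fold change of 4.94 ± 0.48 (edgeR adjusted p = 1.49e-06) rests on few non-Tg reads, and it has close paralogs.

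Of 9 tested Src family kinases and regulators 1 rose, Fgr, a kinase of myeloid cells. It had 12.55, 17.7 and 48.7 CPM in the lowest, median and highest PS2APP sample and 3.11, 5.25 and 10.25 CPM in non-Tg samples, without overlap, and its log2 fold change was 1.88 ± 0.38 (edgeR adjusted p = 0.0117). Its call was lost without the 4 libraries with high immediate early genes (1.72, adjusted p = 0.0713) and without the 3 low in Xist (1.70, adjusted p = 0.116). Of 8 tested ligands, sheddases and trafficking genes of TREM2, 2 rose and 0 fell. Apoe, which encodes a lipoprotein component that TREM2 binds, averaged 1165 ± 425 CPM in PS2APP and 258 ± 161 CPM in non-Tg samples (2.46 ± 0.30, edgeR adjusted p = 4.47e-05). The groups overlapped, since PS2APP sample 8 held 354.6 CPM and non-Tg sample 11 held 514.3 CPM. For Apoe the log2 fold change of 15 over 14 months was 1.05 ± 0.29 (edgeR adjusted p = 0.539). Its genotype by age term was -1.34 ± 0.50 (edgeR adjusted p = 0.641). Astrocytes also make Apoe, and summed astrocyte markers were 309 to 606 CPM in PS2APP and 437 to 1070 CPM in non-Tg samples. Of 6 tested astrocyte markers Gfap rose (15.4 CPM in PS2APP and 3.66 CPM in non-Tg on average, edgeR adjusted p = 0.0120), Slc1a2 fell (244 CPM in PS2APP and 492 CPM in non-Tg, edgeR adjusted p = 0.0202) and 4 were not called. Their part in the Apoe result was not tested. Clec7a, Cd200r4 and Apoe were called in 17 of 17 alternatives and in 15 of 15 fits without a sample.

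Lgals3, which encodes the TREM2-binding lectin galectin-3, averaged 8.99 ± 5.24 CPM in PS2APP and 1.59 ± 1.15 CPM in non-Tg samples (2.42 ± 0.52, edgeR adjusted p = 0.0180). The groups overlapped, with 2.99 CPM in the lowest PS2APP and 3.72 CPM in the highest non-Tg sample. Lgals3 was called in 11 of 17 alternatives. The edgeR call was lost at a log2 fold change of 2.24 without non-Tg sample 5 (adjusted p = 0.0544), 2.39 without non-Tg sample 13 (0.0550) and 2.20 without PS2APP sample 7 (0.0578). It was also lost at 2.47 without the 4 libraries with high immediate early genes (0.0836), at 2.57 in a fit adjusted for Xist against Y-linked reads (0.0551) and at 2.05 with limma-voom (adjusted p = 0.0921). With fewer samples, at 14 and 15 months alone, neither Lgals3 (2.97 and 2.11, edgeR adjusted p = 0.101 and 0.255) nor Fgr (1.92 and 1.88, adjusted p = 0.174 and 0.149) was called. With the neuron marker score Lgals3 stood at 1.87 and Fgr at 1.09, not called (edgeR adjusted p = 0.999 for each). The sheddase genes Adam10 (0.36 ± 0.22) and Adam17 (0.10 ± 0.15), whose products cleave TREM2 from the cell surface, were not called (edgeR adjusted p = 0.564 and 0.867).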

How the data were processed

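RNA was taken from sorted Cx3cr1::GFP-positive cortical cells of 15 samples with a column kit, per the labels' protocols, and per the submitters' processing notes GSNAP was used with GRCm38. The authors deposited for each gene ID a count of uniquely aligned reads, per the file headers, and nRPKM, an RPKM adjusted by a size factor per sample, also per the file headers. No source used here gives the annotation, library kit or strandedness. RefSeq (GRCm38.p6) matched 31049 of 36528 IDs, with 97.2% to 98.2% of reads. Over 51 pairs of samples of a group, counts differed beyond sampling noise (chi-square per degree of freedom 10.9 to 74.5), so each sample counted once.

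Counts were tested with edgeR 4.0.16 in R 4.3.3 (TMM scaling, filterByExpr on genotype, quasi-likelihood model with age and genotype), with Benjamini-Hochberg adjustment over all 13994 genes tested and a threshold of 0.05. CPM are counts over TMM-adjusted library sizes, and SEs are the log2 fold change over the square root of F. The step was tested on simulated counts. Single values and ratios used log2 CPM with a prior count of 2 and exact permutation over 5005 splits (scipy 1.17.1). The 10 genes and all lists were chosen with earlier results of these data known. All 10 are named, with each called gene of a list, or the 2 of smallest adjusted p where none was called; Fcer1g, Adam10 and Adam17 were added after their values were seen. For Trem2, Tyrobp and called members the 3 genes of highest r are named (average log2 CPM 2 or more). Treml6 was not matched. Alternatives were no age term, other scaling and filters, DESeq2 1.42.0, limma 3.58.1, score covariates, each age alone and samples left out. The 5 CPM filter and the ratios were added after seeing the data.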

Additional observations from a re-analysis of the deposited data

Results flagged for a closer look

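Dixon's criterion at the 95% level marked 2 of 42 groups of sample values, where chance marks about 1 in 20. Plcg2 in non-Tg samples was marked by sample 9, at 190.4 CPM against 144 to 156 CPM in the other 5. That library is one of the 4 high in immediate early genes, and without it the log2 fold change of Plcg2 was -0.14 and still not called. Vav3 in non-Tg samples was marked by sample 11, at 19.9 CPM.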

How the results depend on the processing

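No paired analysis was possible because the genotypes share no replicate numbers. Over all genes 165 were called (134 higher, 31 lower). The count was 648 (350 higher, 298 lower) with no filter on low counts, 388 (261, 127) with DESeq2, 50 (46, 4) at 14 months alone, 65 (55, 10) at 15 months alone, 81 (72, 9) without the 3 libraries low in Xist and 13 (13, 0) with the neuron marker score. Lower calls were 51 with limma-voom and 19 with limma-trend on log2(nRPKM + 1), and 18 to 42 over the 15 fits that left out a sample, with 18 without PS2APP sample 10 and 19 without 6 or 15. Of the 9 genes 2 were called with limma-voom, and 0 at 15 months alone, without the 4 libraries with high immediate early genes or with the neuron marker score. Treml2 was called in 14 of 17 alternatives and 15 of 15 fits without a sample. In the pathway lists 3 genes were called, against 5, at either age alone, without the 4 libraries and with the neuron score, and 4 to 5 without a sample. Ratios called were 5 without the 4 libraries. Signs turned for Treml1 (0.023, log2(nRPKM + 0.1)), at 14 months for Syk (0.17), Vav1 (0.13), Cd79b (0.63) and Vav3 (0.050), at 15 months for Trem2 (-0.0028), and with the neuron score for Syk (0.039), Vav1 (0.015) and Cd247 (0.045), none of them called in either fit. Fewer samples entered the fits by age and without libraries, and the neuron marker score cannot be clearly told apart from genotype. The cause of the other shifts was not tested. The depth of 3664742 to 8455237 counts limits what can be said of Trem1.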
